A study of Mus musculus with 113 samples.

Results

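The transcription factors of naive pluripotency were followed by taking every row whose symbol is Zfp42, Klf4, Klf2, Klf5, Esrrb, Tbx3, Nanog, Tfcp2l1, Prdm14 or Nr0b1. These are 10 of the 23736 genes listed in the 4 deposited gene tables, and all 10 are listed in each table, Tfcp2l1 in 3 of them under its older symbol Tcfcp2l1. The question was in which order and how fast each factor is lost when mouse embryonic stem cells (mESCs) are driven into neural differentiation. R1 mESCs, a mouse ES cell line passaged once without feeders before use, were differentiated as embryoid body-like aggregates floating in serum-free medium (SFEB) or as an adherent monoculture in N2B27 medium on gelatin, both replated at day 6. SFEB was sampled as cell populations at 14 time points from 0 to 142 h (the first series), as populations at 8 time points from 0 to 216 h (the parallel series) and as 64 manually picked single cells, 8 at each of the same 8 time points. The adherent monoculture was sampled as populations at 15 time points from 0 to 216 h. E14 mESCs, another mouse ES cell line, were sampled as wild type (WT) and Fyn knockout (KO) at days 0 and 4 with 3 libraries per group. The KO is 1 CRISPR/Cas9 clone that lacks a stretch of Fyn with the initiation codon, and the labels do not say by which protocol the E14 cells were differentiated.

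Naive pluripotency is the state of the early epiblast and of mESCs held with leukemia inhibitory factor (LIF), and it rests on transcription factors that sustain each other's expression. LIF acts through STAT3 on Klf4 and Tfcp2l1 and through phosphoinositide 3-kinase on Tbx3, while Wnt signalling and inhibition of GSK3 relieve Esrrb from repression by TCF7L1. When these signals are withdrawn the cells pass through a formative, post-implantation epiblast-like state, in which Pou5f1 and Sox2 are still expressed, before they adopt a germ layer fate.

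The promoters of 3 of the factors are shown as examples of different courses in SFEB, with Klf4 the first to reach 50%, Zfp42 later than most and Nanog partly regained. RefSeq start sites on GRCm38.p6 gave a window of 250 bases upstream for 7 of the 10 factors (9 windows). Letters are 5′ to 3′ on the gene's strand, and capitals mark words that were searched on both strands: ATTTGCAT (the octamer bound by POU factors such as OCT4), the OCT-SOX composite (written with the known Nanog site in mind), GGGNGTGG (KLF), TCAAGGTCA (ESRRB) and TTCCNGGAA (STAT3).
Klf4, chr4:55532476-55532725, minus strand: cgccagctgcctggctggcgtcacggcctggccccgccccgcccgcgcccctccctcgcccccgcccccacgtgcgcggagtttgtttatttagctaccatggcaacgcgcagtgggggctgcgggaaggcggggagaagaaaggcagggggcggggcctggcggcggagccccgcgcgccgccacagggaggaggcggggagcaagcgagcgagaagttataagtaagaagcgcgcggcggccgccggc
Zfp42, chr8:43307010-43307259, minus strand: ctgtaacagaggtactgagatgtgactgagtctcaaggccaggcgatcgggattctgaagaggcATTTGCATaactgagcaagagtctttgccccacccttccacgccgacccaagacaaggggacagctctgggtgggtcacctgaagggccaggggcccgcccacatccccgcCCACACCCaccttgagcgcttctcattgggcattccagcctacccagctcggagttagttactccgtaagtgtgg
Nanog, chr6:122707239-122707488, plus strand: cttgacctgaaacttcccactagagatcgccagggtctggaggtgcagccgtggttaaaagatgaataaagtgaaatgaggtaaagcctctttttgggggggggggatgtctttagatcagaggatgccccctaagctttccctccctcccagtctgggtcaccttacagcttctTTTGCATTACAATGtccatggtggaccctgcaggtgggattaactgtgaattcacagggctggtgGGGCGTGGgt
The Zfp42 window holds the octamer at bases -186 to -179 from the start site and a KLF word at -75 to -68 on the opposite strand. The Nanog window holds the composite at -75 to -62 on the opposite strand and a KLF word at -10 to -3. A window of Tfcp2l1 holds 2 KLF words, and the windows of Klf4, Klf2, Esrrb and Nr0b1 hold none of the 5 words. Of all 32851 windows of the same length, 15.9% hold the KLF word, 1.6% the octamer, 0.387% the ESRRB word and 0.913% the STAT3 word, and the composite stands in the 2 Nanog windows, which overlap and hold the same site, a match that follows from how the word was written. The composite and octamer words can overlap. A match is a description of letters and not a bound site.

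Each time point of the R1 populations is 1 library, so that no error can be given for a level or a time there, and rises and falls in the R1 cells are descriptions of these libraries without a test. The tables list 13369 to 13676 genes above 0 in a population, 15125 to 16474 in an E14 library and 5648 to 10437 in a cell, and they hold no read counts, so that the depth of each sample cannot be read from them. At 0 h the 4 pluripotency markers Pou5f1, Sox2, Utf1 and Sall4 summed to 803, 868 and 1010 FPKM (mapped fragments scaled for gene length and library size) in the first, parallel and adherent series, and at the last time to 136, 235 and 204 FPKM. The 8 neural markers rose in the same samples from 91.2 to 1293, from 66.1 to 1610 and from 178 to 1232 FPKM. The 0 h populations also held fibroblast markers, the marker type of feeder cells. All 10 of these were above 0 there and together reached 1081 FPKM in the first, 1134 FPKM in the parallel and 705 FPKM in the adherent series. They fell to 411 FPKM at 8 h, 410 FPKM at 9 h and 422 FPKM at 8.5 h, and to 41.3, 87.2 and 82.2 FPKM at 42.5, 38 and 53.5 h. Their part in the early values of the factors was not tested in the populations. In bulk samples fewer cells that express a gene and less RNA per cell cannot be told apart.

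In each R1 population series most factors had fallen to 50% of their 0 h level or less near 2 days. The times differed between factors, but several lay close together and, with 1 library per point, have no error. In the SFEB first series 9 of the 10 factors stood at or below 50% of their 0 h level at 42.5 h, where 18% of the 12208 genes with at least 1 FPKM at 0 h did. Their median was 12.7% of the 0 h level, against 96.3% for those genes. The median of the factors was higher again in the next sample, at 54.5 h. In the parallel series 9 of 10 had reached 50% at 38 h (background 14.7%, median of the factors 25.9%), and in the adherent monoculture 8 of 10 had at 53.5 h (background 10.7%, median 23.6%). The time at which a factor first reached 50%, read off a straight line between neighbouring samples, ran from 6.54 to 60.5 h in the first series (median 29.8 h), from 5.89 to 56.1 h in the parallel series (median 19.2 h) and from 22.1 to 61.9 h in the adherent monoculture (median 33.8 h). In the last sample all 10 factors were at or below 10% in the first series (142 h, background 6.14%), 8 in the parallel series (216 h, background 3.62%) and 5 in the adherent monoculture (216 h, background 3.24%). These times differ, and near 142 h the counts were 1 in the parallel series (Klf4, at 144 h, background 1.95%) and 9 in the adherent monoculture (all but Nanog, at 140.5 h, background 3.02%). The levels left in the last samples were 1.01 to 8.21%, 6.48 to 14.9% and 3.14 to 15% of the 0 h level.

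**Figure D1:**
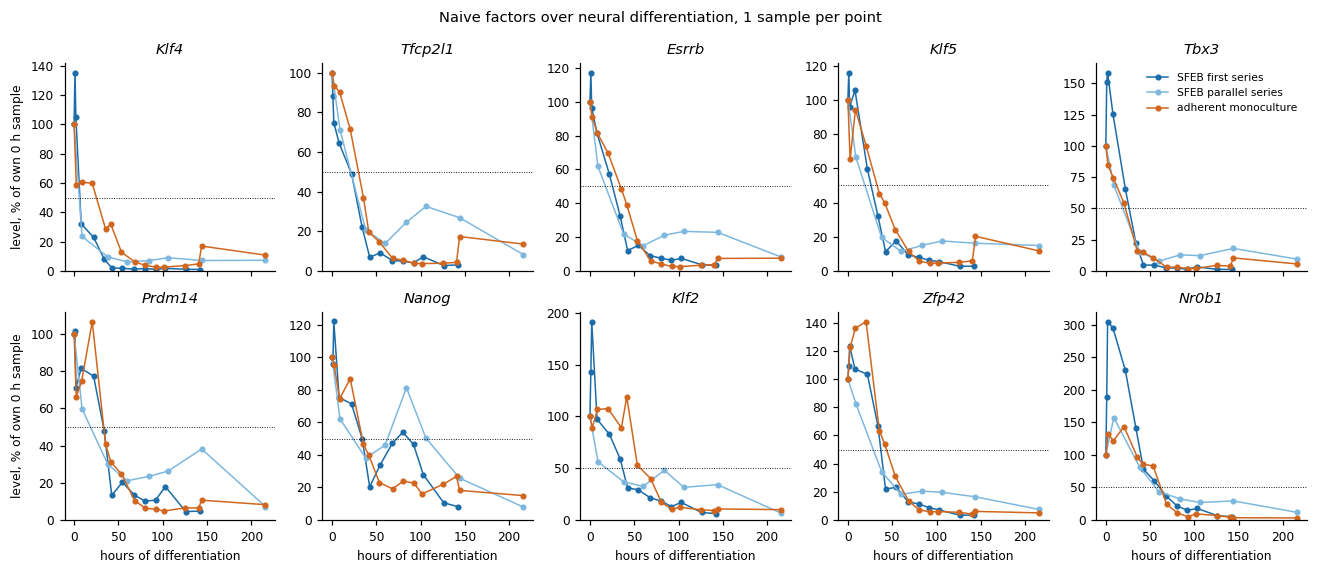
Level of each of the 10 factors (percent of its own 0 h sample, linear axis) against hours of differentiation in the SFEB first series, the SFEB parallel series and the adherent monoculture, 1 panel per factor and 1 sample per point, with a dotted line at 50%. Klf4 is below the line by 9 h in both SFEB series. With this 0 h reference Nr0b1 is the last factor to reach the line for the first time. Nanog rises again in SFEB to 54.0% at 80 h and 81.4% at 84 h.

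Klf4, Klf2 and Klf5 are Kruppel-like zinc finger factors with overlapping functions in the naive network. Klf4 was the earliest factor to reach 50% in both SFEB series. In the first series its FPKM was 40.9 at 0 h, 55.3 at 1 h, 43.1 at 2 h, 13.2 at 8 h, 9.41 at 22 h, 3.32 at 34 h and 0.874 at 42.5 h, and from 54.5 to 142 h it stayed between 0.413 and 0.749. In the parallel series it was 44.5 at 0 h, 10.5 at 9 h, 4.27 at 38 h and 2.76 to 4.02 after that. In the adherent monoculture it was 30.3 FPKM at 0 h, 17.9 at 2.5 h, 18.4 at 8.5 h and 18.1 at 20.5 h. It was then 8.73 FPKM at 35.5 h and 3.88 FPKM at 53.5 h. It reached 50% at 6.54, 5.89 and 25.2 h. Klf4 is also shown by the study as a marker of its earliest stage from these RNA-seq data, so its loss is not independent evidence. The lead of Klf4 in SFEB rests on the samples up to 9 h, over which the summed fibroblast markers went from 1081 to 411 FPKM (first series) and from 1134 to 410 FPKM (parallel series). With the 8 to 9 h sample as reference, an alternative added after the data were seen, Klf4 reached 50% at 27.6 h in the first series, later than Tbx3 at 22.8 h and Klf5 at 24.9 h, at 33.4 h in the parallel and at 34.7 h in the adherent series. With that reference 10, 6 and 9 of the 10 factors were at or below 50% near 2 days in the first, parallel and adherent series (background 13.5, 7.72 and 9.55%).

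Klf2 was slower than Klf4 in all 3 series. It rose from 113 FPKM at 0 h to 216 FPKM at 2 h in the first series, was back at 109.9 FPKM at 8 h and fell to 35.1 FPKM at 42.5 h and 6.93 FPKM at 142 h. In the parallel series, whose first sample after 0 h is at 9 h, it was 147 and then 83.0 FPKM, and it lingered at 46.5 to 70.6 FPKM from 38 to 144 h before it was 9.54 FPKM at 216 h. In the adherent monoculture it ranged from 93.0 to 124 FPKM over the first 41.5 h and was 55.3 FPKM at 53.5 h and 17.9 FPKM at 80.5 h. Klf2 reached 50% at 36.8, 18.4 and 56.9 h. Klf5 kept its level in the first series for the first 8 h (45.6 to 55.0 FPKM), was 28.3 FPKM at 22 h and 5.35 FPKM at 42.5 h, and reached 50% at 26.1, 19.2 and 33.0 h. In the last sample Klf5 was at 1.33, 7.84 and 3.85 FPKM.

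Esrrb and Nr0b1 are orphan nuclear receptors, Esrrb an activator of the naive network and Nr0b1 (Dax1) a corepressor that binds OCT4 and other nuclear receptors. Esrrb was 107 FPKM at 0 h, 126 at 1 h, 104 at 2 h, 87.3 at 8 h, 61.3 at 22 h, 35 at 34 h and 13 at 42.5 h in the first series. Its profile had the highest correlation of the 10 with the mean of the other 9 (Pearson r 0.997 over 14 samples of 1 series). The factors share these libraries and the trend with time, so this is a description. Esrrb reached 50% at 25.4, 17.5 and 34.3 h. Nr0b1 was first higher than at 0 h. Its FPKM in the first series was 19.8 at 0 h, 37.3 at 1 h, 60.2 at 2 h, 58.4 at 8 h, 45.5 at 22 h, 27.9 at 34 h, 15.4 at 42.5 h and 1.02 at 142 h. It was also higher at 9 h than at 0 h in the parallel series (49.0 against 31.2 FPKM) and at 20.5 h than at 0 h in the adherent monoculture (58.0 against 40.4 FPKM). With the 0 h sample as reference it was the last factor to reach 50% for the first time in every population series, at 60.5, 56.1 and 61.9 h. With the 8 to 9 h sample as reference it kept this place in the adherent monoculture (59.1 h) and not in SFEB. In the first series it then reached 50% at 33.1 h, before Prdm14 at 35.8 h, Zfp42 at 36.4 h, Klf2 at 37.2 h and Nanog at 37.6 h, and in the parallel series at 39.7 h, before Nanog at 136 h and Klf2 at 159 h. Of the 10 factors 3 stood at 1.5 times the 0 h level or more in a sample up to 9 h of the first series (Nr0b1 3.04, Klf2 1.91 and Tbx3 1.58 times), where 19.3% of all genes did. In the parallel series this was 1 factor, Nr0b1 at 1.57 times (background 5.96%), and in the adherent monoculture 0 (background 10.7%).

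Tbx3 is a T-box repressor downstream of LIF and phosphoinositide 3-kinase signalling, and Tfcp2l1 a grainyhead-family factor. Both were among the factors with the least left at 42.5 h of the first series. Tbx3 was 14.1 FPKM at 0 h, 22.3 at 2 h, 17.7 at 8 h, 9.26 at 22 h, 3.10 at 34 h and 0.670 at 42.5 h in the first series, and it was the earliest factor to reach 50% in the adherent monoculture (22.1 h, against 26.3 and 19.2 h in SFEB). It reached 10% at 39.9, 53.8 and 54.7 h. Tfcp2l1 fell steadily from 33.7 FPKM at 0 h to 21.8 at 8 h, 16.6 at 22 h, 7.44 at 34 h and 2.36 at 42.5 h. It reached 50% at 21.2 h in both SFEB series and at 29.8 h in the adherent monoculture. At 42.5 h Klf4, Tbx3 and Tfcp2l1 were at 2.14, 4.76 and 7.0% of their 0 h levels, and they were the 3 factors at or below 10% there (background 3.15%). Klf5 at 11.3% and Esrrb at 12.1% were the next. In the parallel series 1 factor was at or below 10% at 38 h, Klf4 at 9.59% (background 1.82%), and in the adherent monoculture 0 were at 53.5 h (background 0.609%), where Tbx3 at 10.6% and Klf4 at 12.8% were the lowest.

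Nanog, a homeodomain factor that returns in the post-implantation epiblast, came back closest to its 0 h level after its first fall in both SFEB series. In the first series its FPKM was 178 at 0 h, 134 at 8 h, 127 at 22 h, 89.1 at 34 h and 36.3 at 42.5 h, then 60.6 at 54.5 h, 83.7 at 68 h, 96.1 at 80 h and 82.6 at 92 h, and after that 49.7 at 103 h, 18.9 at 126 h and 14.6 at 142 h. In the parallel series it was 175 at 0 h, 109 at 9 h, 66.6 at 38 h, 80.6 at 60 h, 142 at 84 h, 88.0 at 106 h, 44.9 at 144 h and 13.9 at 216 h. In both SFEB series Nanog thus had a second maximum near 80 h, of 54.0 and 81.4% of its 0 h level, 2.65 and 2.14 times the preceding minimum. It first passed 50% at 34.0 and 23.7 h but stayed below it only from 86.4 and 107 h. The 4 listed of 7 mesoderm markers summed in the parallel series to 2.74 FPKM at 38 h, 7.62 at 60 h, 25.6 at 84 h, 37.2 at 106 h, 24.2 at 144 h and 8.18 at 216 h, and in the first series to 5.13 to 7.18 FPKM from 34 to 92 h and 22.5 FPKM at 103 h. In the mean of the single cells the 5 listed summed to 123 RPKM at 84 h, where 1 cell held 966 RPKM and the median cell 0.239 RPKM. Their part in the course of Nanog was not tested. In the adherent monoculture Nanog was 163 FPKM at 0 h, 142 at 20.5 h, 75.8 at 35.5 h, 37.6 at 53.5 h and 31.2 at 68.5 h, then 26.1 to 43.7 FPKM from 80.5 to 140.5 h and 24.5 FPKM at 216 h. It never reached 10% there. Of the 10 factors 1, Nanog, was back above 50% of its 0 h level after its lowest value by 60 h in each SFEB series, and 0 were in the adherent monoculture. Returns to a smaller share of the 0 h level were seen in the parallel series for Zfp42, from 67.9 FPKM at 60 h to 76.5 FPKM at 84 h, for Klf4, from 2.76 FPKM at 60 h to 4.02 FPKM at 106 h, for Klf2, from 47.8 FPKM at 60 h to 70.6 FPKM at 84 h, for Esrrb, from 17.5 FPKM at 60 h to 27.5 FPKM at 106 h, for Klf5, from 6.03 FPKM at 60 h to 9.23 FPKM at 106 h, for Tfcp2l1, from 3.44 FPKM at 60 h to 8.09 FPKM at 106 h, for Tbx3, from 1.36 FPKM at 60 h to 3.11 FPKM at 144 h, and for Prdm14, from 1.98 FPKM at 60 h to 3.58 FPKM at 144 h. Relative to the minimum those of Tfcp2l1 (2.35 times) and Tbx3 (2.28 times) were larger than that of Nanog. The 4 listed of 7 endoderm markers summed in the same samples to 3.44 FPKM at 60 h, 8.01 at 84 h, 17.6 at 106 h and 20.9 at 144 h, and the part of these and of the mesoderm markers in the returns was not tested. Of all genes that had reached 50% by 60 h, 70.7, 64.7 and 75.3% came back above it in the 3 series.

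Zfp42 (Rex1), a zinc finger protein widely used as a reporter of the naive state, was the most abundant factor in FPKM at 0 h in all 3 series and held its level for longest after Nr0b1 in the first and parallel series. In the first series it was 296 FPKM at 0 h, 365 at 2 h, 317 at 8 h, 306 at 22 h, 196 at 34 h, 64.6 at 42.5 h and 10.2 at 142 h. In the adherent monoculture it was 298 FPKM at 0 h and 420.1 at 20.5 h, and then 189 at 35.5 h, 92.3 at 53.5 h and 15.1 at 216 h. It reached 50% at 37.1, 28.6 and 43.5 h. Zfp42 is, like Klf4, a marker of the study's earliest stage. Prdm14, a PR-domain protein that represses FGF receptor signalling and the DNA methyltransferases, was the least abundant at 0 h with 9.11, 9.37 and 7.96 FPKM. It reached 50% at 33.2, 18.5 and 33.4 h.

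**Figure D2:**
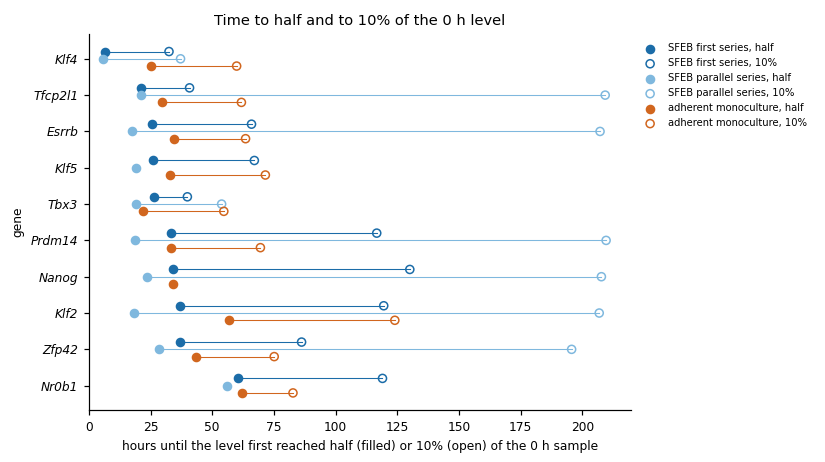
Hours until each factor first reached 50% (filled points) and 10% (open points) of its 0 h sample in the 3 population series, 1 row per factor. A line joins both times of a series and is absent where 10% was not reached. The filled points of the first series run from Klf4 at 6.54 h to Nr0b1 at 60.5 h, and those of the adherent monoculture from Tbx3 at 22.1 h to Nr0b1 at 61.9 h.

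The order of loss in the first series resembled that of the adherent monoculture (Spearman's rho of the times to 50% 0.770 over the 10 factors) more than the parallel series did (0.370), and the first and parallel series had a rho of 0.636. These are descriptions over genes that share their 0 h libraries, and the parallel series has 3 samples in the first 38 h. The SFEB first series and the adherent monoculture share most of their sampling times. In 10 pairs of samples taken from 20 h on and at most 1.5 h apart, each factor was set to its own 0 h level, since the 2 tables were normalized separately. At 42.5 h in SFEB and 41.5 h in the adherent monoculture all 10 factors were lower in SFEB, with medians of 12.7 and 39.5% of the 0 h level, where 46.9% of all genes were lower in SFEB. Klf2 was then at 31.1% in SFEB and 119% in the adherent cells, Zfp42 at 21.8 and 53.9%, and Klf4 at 2.14 and 31.8%. In the next pair the SFEB median (54.5 h) was higher and closer to the adherent median of 23.6% (53.5 h). From 42.5 to 54.5 h of SFEB Klf5 went from 11.3 to 17.6% and Esrrb from 12.1 to 15.1%. Zfp42, Nanog, Tfcp2l1 and Prdm14 were also higher at 54.5 h, and Klf4, Klf2, Tbx3 and Nr0b1 were lower. The size of the gap at 42.5 h thus rests on this 1 pair of libraries. At 22, 34, 54.5 and 68 h of SFEB 8, 5, 9 and 6 of 10 factors were lower in SFEB (51.4, 40.3, 49.3 and 51.5% of all genes). At 80, 92 and 103 h 3, 2 and 1 of the 10 were (50, 51.5 and 52.6% of all genes), and at 80 h Nanog stood at 54.0% in SFEB and 24.0% in the adherent cells. The SFEB library of 103 h stood apart from those of 92 and 126 h, with summed mesoderm markers of 22.5 FPKM against 7.18 and 7.41, fibroblast markers of 56.1 FPKM against 37.0 and 27.2 and endoderm markers of 10.2 FPKM against 6.80 and 7.89. Klf4, Klf2, Esrrb, Tbx3, Tfcp2l1, Prdm14 and Nr0b1 were also higher in it than in both neighbours, a pattern whose share over all genes was not computed. The part of the markers in the count at 103 h was not tested. At 126 and 142 h 9 of 10 were lower in SFEB (52.3 and 55.0% of all genes). Klf4 was lower in SFEB in 10 of these 10 pairs, Nanog in 4 and Nr0b1 in 3. In the earlier pairs SFEB at 1 and 2 h stood against the adherent cells at 2.5 h, with 2 and 1 of 10 factors lower in SFEB (33.8 and 51.5% of all genes) and Klf4 higher there (135 and 105% against 58.9%). At 8 and 8.5 h 4 of 10 were lower in SFEB (48.5% of all genes), with Klf4 at 32.2 and 60.7%. With 1 library per point these differences have no replicate check.

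The adherent cells at 144 h, the first sample after 140.5 h, stood apart from both neighbours for several factors. Klf4 was 1.47 FPKM at 140.5 h, 5.16 at 144 h and 3.28 at 216 h, Klf5 1.95, 6.67 and 3.85 FPKM, and Tfcp2l1 0.810, 3.23 and 2.52 FPKM. The summed fibroblast markers were 82.0, 249 and 57.4 FPKM in the same samples and the summed endoderm markers 20.2, 93.9 and 48.3 FPKM. Klf4 and Klf5 are also expressed in fibroblasts and epithelia, and the part of these markers' cells in the late values was not tested.

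Other genes of the pluripotency network were taken from fixed lists. Among 25 companion genes of the naive state, 16 were at or below 50% at 42.5 h in the first series (median 37.7% of the 0 h level), 12 at 38 h in the parallel series and 11 at 53.5 h in the adherent monoculture (background 18, 14.7 and 10.7%). Socs3, the feedback inhibitor of LIF and STAT3 signalling, had the least left in the first series, with 47.0 FPKM at 0 h and 1.29 FPKM at 42.5 h (2.75%), and Zscan10 the most (168%). Of 8 core pluripotency genes 0 were at or below 50% near 2 days in any of these series, and their median was 145% in the first series, from Sox2 at 74.9% to Lin28a at 428%. Of 14 formative epiblast genes 0 were at or below 50%, and their medians were 665, 395 and 521%. Fgf5, a growth factor of the post-implantation epiblast, went from 1.10 to 35.1 FPKM in the first series (3191%), and Etv4 was the lowest of the list at 87.4%. The summed formative list was highest at 42.5 h in the first series, 60 h in the parallel series and 53.5 h in the adherent monoculture, with 1014, 835 and 891 FPKM.

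**Figure D3:**
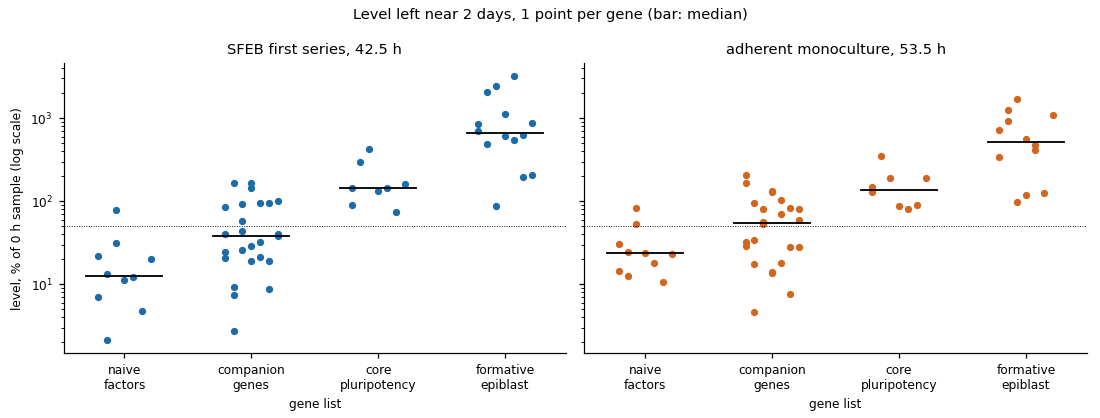
Level left near 2 days (percent of the 0 h sample, log axis) in the SFEB first series at 42.5 h and the adherent monoculture at 53.5 h, 1 point per gene of the 4 lists, with a bar at the median and a dotted line at 50%. The medians of the first series are 12.7% for the factors, 37.7% for the companion, 145% for the core and 665% for the formative genes.

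The 5 genes whose profile in the first series was most like the mean of the factors, by Pearson r of log2(FPKM + 1) over 14 samples among 3266 changing genes, were Cd9 (0.992), Cobl (0.991), 2410004A20Rik (0.989), Gm7325 (0.988) and Pcolce (0.986). Over the 15 adherent samples their r was 0.827, 0.988, 0.973, 0.977 and 0.966. The points of such a correlation share their libraries and the trend with time, and Pcolce encodes a collagen-processing protein made by fibroblasts.

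In single cells the values are log10(RPKM + 1) after quantile normalization between cells, so that a value of 1 corresponds to 9 RPKM, and the 8 cells of a time point count as 1 sample. The factors were held unevenly by the cells of a time point. A cell above 10 RPKM for a factor is called high for it. A cell at 0 h was high for 4 to 7 of the 10 factors (median 5) and a cell at 9 h for 4 to 6 (median 4.5). At 38 h the range was 0 to 6 (median 2), at 60 h 0 to 4, at 84 h 0 to 4, at 106 h 1 to 6, at 144 h 1 to 3 and at 216 h 0 to 4 with a median of 0. At 38 h 1 cell was high for Esrrb, Klf2, Nanog, Nr0b1, Prdm14 and Zfp42, and another for none of the factors. The numbers of genes above 0 per cell differed between times, with medians from 6145 at 144 h to 8972 at 0 h, and their part in these counts was not tested.

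Zfp42 was above 0.5 RPKM in 8 of 8 cells at every time. Its log10 value ran from 2.12 to 3.03 at 0 h (median 2.76), from 1.44 to 2.64 at 9 h (median 2.05), from 0.84 to 2.78 at 38 h (median 1.89), from 0.30 to 2.68 at 60 h (median 1.43) and from 0.34 to 2.92 at 84 h (median 0.81). It then ran from 0.93 to 3.10 at 106 h (median 1.35) and from 1.18 to 2.75 at 144 h (median 1.56), with 7 and 8 of 8 cells above 10 RPKM, before it ran from 0.20 to 1.29 at 216 h (median 0.74). At 84 h the highest cell was inside the range of 0 h and the lowest inside the range of 216 h. Klf4 was unevenly held from the start, with log10 values of 0.01 to 2.32 at 0 h (median 0.96) and 4 of 8 cells high, and 0 of 8 were high at 9 h (0.00 to 0.91, median 0.13). The 4 cells high for Klf4 at 0 h had log10 values of 2.32, 1.77, 1.50 and 1.11 and summed fibroblast markers (7 of 10 listed) of 0.410, 6.62, 0.322 and 19.99 RPKM, where the median of the 8 cells was 7.76 RPKM. The 2 cells with fibroblast sums of 736 and 457 RPKM had Klf4 values of 0.04 and 0.81. Klf5 went from 0.06 to 2.22 at 0 h (median 0.79) to 0.00 to 0.12 at 9 h, with 2 and 0 cells high. The 2 cells high for Klf5 at 0 h had log10 values of 2.22 and 1.68 and fibroblast sums of 0.410 and 736 RPKM. The part of these markers in the values of the factors was not tested.

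Nr0b1 was higher at 9 h than at 0 h in the cells, with medians of 1.56 at 0 h and 2.17 at 9 h (ranges 0.17 to 2.36 and 0.22 to 2.75), and 7 of 8 cells were high at both times. Its later medians were 0.69 at 38 h, 0.04 at 60 h, 0.19 at 84 h, 0.46 at 106 h, 0.64 at 144 h and 0.03 at 216 h. Nanog was high in 7 of 8 cells at 0 h, 5 at 9 h, 2 at 38 h, 5 at 60 h, 6 at 84 h, 5 at 106 h, 1 at 144 h and 1 at 216 h, with medians of 1.83, 1.60, 0.29, 1.15, 1.51, 1.59, 0.60 and 0.27. The cells high for Nanog were thus fewest among the first 5 times at 38 h and made up most of the cells again from 60 to 106 h. Esrrb was high in 7 cells at 0 h, 6 at 9 h, 3 at 38 h, 2 at 60 h and 1 at 84 h. Klf2 had medians of 1.23 at 0 h, 1.56 at 9 h and 0.23 at 38 h. Tbx3, Tfcp2l1 and Prdm14 were low in most cells, with medians at 0 h of 0.00, 0.47 and 0.01. At 9 h 2 cells were high for Prdm14 and 1 for Tbx3. The mean of the 8 cells reached 50% of its 0 h level first for Klf5 and Klf4 (4.51 and 4.63 h) and last for Nr0b1 and Prdm14 (51.8 and 57.8 h). Tbx3 has no such time because its mean at 0 h was 0.966 RPKM. Of the 9 factors with at least 1 RPKM at 0 h, the condition also set for the background, 7 were at or below 50% in the mean of the cells at 38 h (background 35.6%) and 3 at or below 10% (background 14.1%). With 9 h as reference 6 of the 9 factors with at least 1 RPKM at 9 h were at or below 50% (background 41%). At 216 h 8 of the first 9 were at or below 10% (background 20.5%). At 9 h 4 of them stood at 1.5 times their 0 h mean or more (background 31.4%), namely Klf2, Tfcp2l1, Prdm14 and Nr0b1. Tbx3 rose in its mean to 25.5 RPKM at 9 h, where 1 cell held 193 RPKM. After a lowest mean by 60 h, 5 came back above 50% at a later time (background 91.3%), namely Klf2, Klf5, Nanog, Tfcp2l1 and Prdm14. With 8 cells per time such means rest on few cells, as for Klf5 at 60 h, where 1 cell of 8 was high with a log10 value of 2.1.

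**Figure D4:**
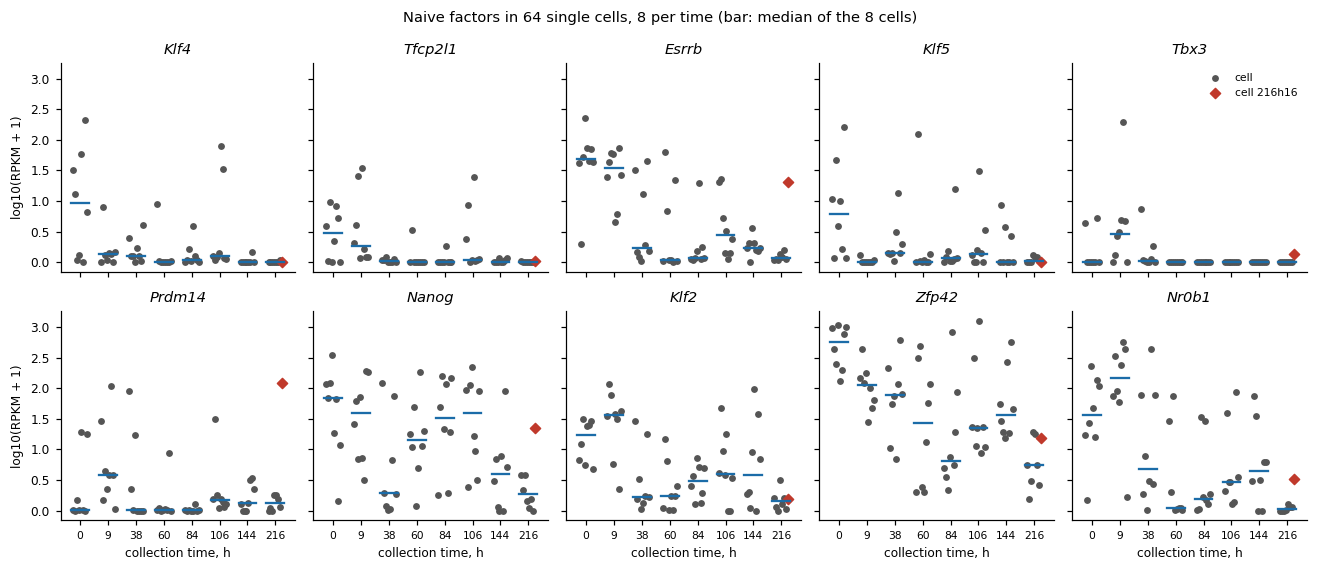
log10(RPKM + 1) of each factor in each of the 64 SFEB single cells by collection time in hours, 8 cells per time and 1 panel per factor, with a bar at the median and a red diamond for cell 216h16. The median of Nanog is 0.29 at 38 h and 1.51 at 84 h, and 216h16 stands above the other 7 cells of its time for Prdm14 (2.09) and Nanog (1.35).

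One cell at 216 h, 216h16, which the study itself set apart, held Prdm14, Nanog and Esrrb above all of the other 7. Its log10 values were 2.09 for Prdm14, 1.35 for Nanog, 1.32 for Esrrb and 1.18 for Zfp42, against highest values of 0.25, 0.59, 0.20 and 1.29 in the other 7 cells, so that Zfp42 lay within their range. The median of Prdm14 was 0.01 at 0 h and 0.05 in these 7 cells. Nr0b1 and Tbx3 were also above the other 7 cells, at 0.51 and 0.13 against highest values of 0.11 and 0.01. Klf4 and Klf5 were at 0 in 216h16. Its summed core pluripotency genes reached 1508 RPKM, against a median of 51.4 RPKM over the 8 cells. Its 5 germ cell markers summed to 99.6 RPKM, the highest of its time, where the median was 0.484 RPKM. In the cells of 0 h this sum had a median of 28.7 and a highest value of 154 RPKM. The 8 neural markers of 216h16 summed to 2.79 RPKM, the lowest of its time, where the median was 771 RPKM. The part of these markers in the values of the factors was not tested. Without this cell the mean level left at 216 h was 7.55% in place of 348% for Prdm14, 0.332% in place of 3.90% for Esrrb and 1.2% in place of 3.88% for Nanog. At 106 h, 2 cells were still high for 5 and 6 factors, and the second of these included Klf2, Klf4, Klf5, Nanog, Tfcp2l1 and Zfp42.

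In E14 cells the loss could be tested, because each group has 3 libraries. The labels do not say that these come from separate cultures, so the p-values measure the spread between libraries only. In WT all 10 factors were lower at day 4 than at day 0 (limma on log2(FPKM + 1), adjusted p below 0.05), where 10.3% of the 12257 genes tested were lower. The median change of the factors was -2.12 on the log2 scale, and for all genes it was 0.08. In the KO 8 of 10 were lower (background 7.56%), with a median of -2.14. Klf2 (-1.29, SE 0.56, adjusted p 0.125) and Prdm14 (-1.74, SE 0.57, adjusted p 0.0530) did not pass there. At an unadjusted p below 0.05 all 10 factors were lower in each genotype (background 38.7 and 34.8% of genes in either direction). The values of day 0 and day 4 did not overlap for any factor in either genotype. The share of all genes without overlap was not computed, so this is a description of the factors alone. Summed fibroblast markers were 0.208 to 5.83 FPKM at day 0 and 4.85 to 16.2 FPKM at day 4, and 1 of the 10 fibroblast markers passed the filter and rose in both genotypes.

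The factors with the least left at 42.5 h in R1 SFEB, Tfcp2l1, Tbx3 and Klf4, also changed most in E14. Tfcp2l1 was 115, 136 and 125 FPKM in the 3 WT libraries of day 0 and 2.74, 7.38 and 3.28 FPKM in those of day 4 (mean 125 ± 10.5 and 4.47 ± 2.54 FPKM, SD, n = 3). Its log2 change was -4.62 (SE 0.60, adjusted p 5.05e-04). Tbx3 was 58.2, 59.0 and 55.2 FPKM at day 0 and 1.41, 6.15 and 3.09 FPKM at day 4, a change of -3.82 (SE 0.40, adjusted p 1.96e-04). Klf4 was 108, 124 and 91.6 FPKM at day 0 and 2.44, 9.31 and 13 FPKM at day 4, a change of -3.78 (SE 0.46, adjusted p 3.49e-04). All 3 were thus far below their day 0 range in each day 4 library. Esrrb changed by -2.49 (SE 0.49, adjusted p 0.00450) and Klf5 by -2.16 (SE 0.34, adjusted p 0.00162). Nanog was 355, 503 and 530.1 FPKM at day 0 and 73.3, 173 and 112 FPKM at day 4, with 25.8% of its mean left. Zfp42 was 336, 372 and 351 FPKM at day 0 and 46.2, 177 and 80.5 FPKM at day 4, with 28.7% left. Both changed by -2.01 (SE 0.29 and 0.42, adjusted p 9.93e-04 and 0.00637).

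The smallest changes in WT were those of Klf2 and Nr0b1. Klf2 was 110.2, 155 and 128 FPKM at day 0 and 14.2, 93.3 and 38.7 FPKM at day 4, with 37.2% left (log2 change -1.77, SE 0.56, adjusted p 0.0372). Nr0b1 was 39.6, 24.3 and 32.8 FPKM at day 0 and 11.6, 17.6 and 14 FPKM at day 4, with 44.8% left (log2 change -1.10, SE 0.37, adjusted p 0.0460). Prdm14 changed by -2.08 (SE 0.57, adjusted p 0.0210). The calls of Klf2, Nr0b1 and Prdm14 were the ones that depended on single libraries or on the fit. With the replicate number as a block Nr0b1 had an adjusted p of 0.0504. Leaving out 1 library at a time left 7 to 10 of the factors lower, and 7 remained without WT day 0 library 2 or 3 or WT day 4 library 1 or 3. Among the WT libraries of day 4 the first had the lowest level of 10 of 10 factors. Its summed neural markers were 232 FPKM against 49.7 and 80.8 FPKM in libraries 2 and 3. Over all genes its FPKM summed to 909369, against 687431 and 585912 in libraries 2 and 3. The share of all genes lowest in the first library was not computed.

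**Figure D5:**
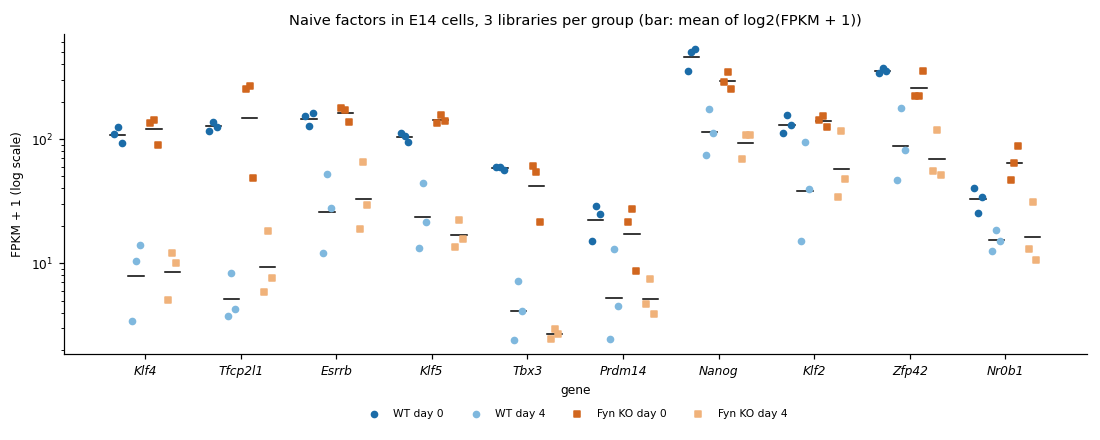
FPKM + 1 (log axis) of each factor in the 12 E14 libraries, WT (circles) and Fyn KO (squares) at days 0 and 4, 1 point per library and a bar at the mean of log2(FPKM + 1) of the 3 libraries. The day 4 points lie below the day 0 points of the same genotype for each factor, by most for Tfcp2l1, Tbx3 and Klf4.

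Fyn, the kinase gene disrupted in the KO, was 3.21, 2.74 and 4.00 FPKM in WT and 0.598, 0.598 and 1.10 FPKM in the KO at day 0, and 9.44, 4.54 and 6.76 FPKM against 1.19, 1.13 and 1.58 FPKM at day 4. The groups did not overlap at either day, and the difference passed the test at day 4 (log2 -1.74, SE 0.24, adjusted p 0.0193) and not at day 0 (-1.29, SE 0.24, adjusted p 0.0601). Between KO and WT 0 factors passed the limma test at day 0 or day 4, where 0.131% of genes were lower and 0.0408% higher at day 0 and 0.0653% lower and 0.00816% higher at day 4. At day 4, where the numbers were taken to pair the libraries, Klf2, Esrrb and Tfcp2l1 were higher in the KO in 3 of 3 pairs of equal number (background 17.6%) and Nanog lower in 3 of 3 (background 20.9%). With the replicate block their differences were 0.58, 0.35, 0.86 and -0.29 on the log2 scale, with adjusted p values of 0.544, 0.763, 0.449 and 0.543 (limma). At an unadjusted p below 0.05 and without the block the counts were 2 factors at day 0 and 0 at day 4 (background 14.6 and 12.1%). The pair at day 0 were Nr0b1, with 39.6, 24.3 and 32.8 FPKM in WT and 46.0, 62.6 and 87.3 FPKM in the KO (log2 0.98, SE 0.37, adjusted p 0.252), and Nanog, with 355, 503 and 530.1 FPKM in WT and 286, 348 and 251 FPKM in the KO (-0.64, SE 0.29, adjusted p 0.340). The groups did not overlap for either gene, nor did they for Klf5 at day 0 (94.3 to 111 FPKM in WT and 132 to 156 FPKM in the KO). The third KO library of day 0 stood apart for Tfcp2l1 (251, 265 and 47.5 FPKM), Tbx3 (59.6, 53.5 and 20.6 FPKM) and Prdm14 (20.5, 26.2 and 7.62 FPKM), which were lower in it, and for Zfp42 (221, 221 and 351 FPKM), which was higher. Its summed formative genes were 179 FPKM against 61.2 and 61.5 FPKM in the other two.

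Whether the KO lost the factors at another rate was tested as the difference of the day 4 against day 0 changes. For the 10 factors this difference ran from -0.93 for Klf5 (SE 0.48, adjusted p 0.997) to 0.62 for Tfcp2l1 (SE 0.85, adjusted p 0.997) on the log2 scale. It passed the test for 0 of the 12257 genes, 537 of which had an unadjusted p below 0.05 (4.38%), with 0 of the factors among them. With standard errors of 0.41 to 0.85, differences of this size in a factor's loss were not detectable with these libraries. Klf5 was 132, 156 and 139 FPKM in the KO libraries of day 0, above the 111, 105 and 94.3 FPKM of WT. At day 4 it was 12.5, 21.4 and 14.7 FPKM in the KO and 12.1, 43.6 and 20.6 FPKM in WT, so that KO and WT overlapped. In KO cells the changes were -4.00 for Tfcp2l1, -3.94 for Tbx3, -3.82 for Klf4, -3.09 for Klf5, -2.28 for Esrrb, -1.99 for Nr0b1, -1.90 for Zfp42 and -1.66 for Nanog.

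In E14 the same lists were tested gene by gene. Of the 25 companion genes 12 were lower and 0 higher at day 4 in WT, and 9 and 0 in the KO (background 10.3 and 7.56% lower, 15.5 and 11.8% higher), with Socs3 at -3.35 and -3.54 on the log2 scale. Among the core genes Pou5f1 (-1.01, adjusted p 7.2e-04) and Foxd3 (-1.16, adjusted p 0.0201) were lower in WT, and Lin28a was higher (2.85, adjusted p 0.0404). In the KO Pou5f1 was lower (-0.93) and Lin28a higher (2.92). Of the 14 formative genes 11 were higher in WT and 10 in the KO (background 15.5 and 11.8%), and 0 were lower, with Fgf5 at 3.79 and 4.78. The median log2 changes in WT were -1.31 for the companion, 0.09 for the core and 3.08 for the formative genes, against 0.08 for all genes tested. Of the markers of other cell types that passed the filter, 4 of 6 neural and 2 of 4 endoderm markers were higher at day 4 in WT and 2 and 0 in the KO, and 0 were lower. Of the 5 germ cell markers Nanos3 was lower in WT (-1.54, adjusted p 0.00299) and Mael higher in the KO (1.90, adjusted p 0.0181), and of the 2 mesoderm markers tested 0 passed in either genotype. The difference between the genotypes passed the test for 0 of these markers. Their part in the values of the factors was not tested. Each of these changes was tested by limma across all genes.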

How the data were processed

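Gene expression was analysed in 22 R1 SFEB populations, 64 R1 SFEB single cells, 15 R1 adherent populations and 12 E14 libraries. The authors mapped single-end reads to mm9 (R1) and mm10 (E14) with TopHat2 2.0.8b and computed expression with Cufflinks 2.1.1, per the processing notes. The study's methods name other, earlier versions of both tools and mm9 alone, and which applies was not settled. The SFEB population values are FPKM after ComBat correction by the authors for batches that are not named, taken here as a score because 1256 of 297902 values lie below 0, and these were set to 0. The adherent and E14 values were deposited as FPKM, and the single cell values as log10(RPKM + 1) after quantile normalization by the authors. The study states a minimum number of reads per library. The tables hold no counts, so the depth of each sample was not computed here. Tables were normalized separately, so tests and levels stay within a table. Samples were grouped by their labels. 1 population of 0 h without a sample type label was placed by its title.

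The factors and lists were chosen with earlier results of these data known. Named genes are all 10 factors, Fyn, the 5 genes most alike, the lowest and highest of each list near 2 days, and those called against most of their list. The E14 result of 1 listed core gene is not reported here. Cell 216h16 was named from the study's own account, and other cells and libraries after their values were seen. Times to 50% and 10% used straight lines between samples for genes of at least 1 FPKM (or RPKM) at 0 h. The E14 groups were compared in 1 limma 3.58.1 model on log2(FPKM + 1) for genes that reached 1 FPKM in 3 or more libraries, with trended empirical Bayes and Benjamini-Hochberg adjustment over 12257 genes at 0.05, two-sided. A fold change on this scale understates that of low genes. Procedures were tested on simulated data with R 4.3.3, Python 3.11.15, numpy 2.4.6, pandas 2.3.3, scipy 1.17.1 and matplotlib 3.10.9.

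The labels do not say whether equal replicate numbers pair the E14 libraries. This was read from the correlation of their deviations from the group means. It was 0.199, 0.220 and 0.224 between the days in WT and 0.136, 0.258 and 0.240 between the genotypes at day 4. Both comparisons were taken as paired. The correlation was 0.0239, 0.0899 and 0.00112 between the days in the KO and 0.0628, 0.339 and -0.115 between the genotypes at day 0. These were taken as not paired, although 0.339 was the highest value of all. No chance level was set for these correlations.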

Additional observations from a re-analysis of the deposited data

How the results depend on the processing

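The time course results have 1 library per point, and the E14 results 3 per group. The count of factors at or below 50% near 2 days stayed within 1.5 times its main value under the alternatives tried. The median time to 50% moved with the reference and scale. For the SFEB first series it was 21.2 h with the highest sample up to 9 h as reference (Nr0b1, below 50% of that level at 0 h, counts there as 0 h, although it was rising), 30.05 h on the log scale of value + 1, 26.9 h with upper-quartile scaling and 31.6 h with the 8 to 9 h sample as reference (an alternative added after the data were seen, as are the others so named). For the parallel series it was 18.1 h on the log scale, 16.9 h with upper-quartile scaling and 33.6 h from 9 h. For the adherent monoculture the same values were 34.2, 35.5 and 36.2 h. For the single cells it was 4.51 h from the highest time up to 9 h (4 of 9 factors, Klf2, Tfcp2l1, Prdm14 and Nr0b1, were below 50% of that level at 0 h and count as 0 h, so that a rise is read as an early loss), 20.2 h on the log scale, 56.9 h for the last time at 50%, 11.4 h with the median over cells and 30.8 h from 9 h. The cause of these shifts was not tested.

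With the replicate block 9 factors were lower at day 4 in WT, where the numbers were taken to pair the libraries. In the KO and between the genotypes at day 0 they were not, and 10 factors were lower in the KO with the block. In WT the count was 8 without the filter on low values, 9 with upper-quartile scaling, 9 with the WT libraries alone, and 7 to 10 without 1 library. In the KO it was 7 to 10 without 1 library (7 without KO day 4 library 3, 10 without WT day 4 library 1). With both day 4 libraries numbered 2 left out, an added alternative, it was 10 in both genotypes. Klf4, Klf5, Esrrb, Tbx3, Nanog and Tfcp2l1 remained lower in both genotypes under all 19 alternatives, and Zfp42 under 19 in WT and 18 in the KO. In WT Klf2 was lost in 8 of the 19, Nr0b1 in 11 and Prdm14 in 4. In the KO Nr0b1 was kept in all 19, and Klf2 was still not called in 16 and Prdm14 in 12.

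Between the genotypes, where 0 factors were called under any alternative, small differences changed sign with the setting (log2, KO minus WT). With a pseudocount of 0.1, Prdm14 at day 4 was 0.046 and the difference of changes of Klf4 0.0051. With upper-quartile scaling Prdm14 at day 4 was 0.017. Without both libraries numbered 2, Prdm14 was 0.36 and Nr0b1 -0.24 at day 4, and the difference of changes of Tbx3 was 0.21. Without 1 library, the day 0 difference ran from -0.018 to 0.23 for Klf2, from -0.70 to 0.13 for Prdm14 and from -0.19 to 1.04 for Tfcp2l1. The day 4 difference, in fits without the block, ran from -0.49 to 0.52 for Klf4, from -0.094 to 1.22 for Klf2, from -0.59 to 0.024 for Nanog, from -0.79 to 0.16 for Zfp42, from -0.57 to 0.63 for Prdm14, from -0.39 to 0.39 for Nr0b1 and from -0.21 to 0.86 for Esrrb. The difference of changes ran from -0.64 to 0.37 for Klf4, from -0.19 to 1.12 for Klf2, from -0.34 to 0.62 for Zfp42, from -0.59 to 0.27 for Tbx3, from -0.20 to 1.00 for Prdm14, from -0.18 to 1.05 for Tfcp2l1 and from -0.35 to 0.72 for Esrrb. The cause was not tested.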
